A study of Mus musculus with 24 samples.

Results

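The 10 genes described here detect RNA in the cytoplasm, relay that signal or answer to interferon. They were taken by name from the 55291 gene rows of the count data. Ddx58 (RIG-I), Ifih1 (MDA5), Dhx58 (LGP2) and Eif2ak2 (PKR) are sensors of double-stranded RNA, Mavs is the adaptor of the first pair, Irf3, Irf7 and Irf9 are transcription factors of the interferon system, and Isg15 and Parp14 are genes that interferon induces. All 10 had counts in at least some of the 12 RNA libraries, and 9, 9 and 8 of them held enough counts to be tested at the 2-cell, 4-cell and 8-cell stages. In GRCm38 the sensors lie at chr4:40203773-40239828 (Ddx58), chr2:62595798-62646255 (Ifih1), chr11:100694884-100704271 (Dhx58) and chr17:78852564-78882573 (Eif2ak2), all on the minus strand, and Mavs lies at chr2:131234063-131248025 on the plus strand. Irf3 (chr7:44997648-45002848) and Irf9 (chr14:55603571-55610030) are on the plus strand, and Irf7 (chr7:141262706-141266481), Isg15 (chr4:156199455-156200796) and Parp14 (chr16:35832874-35871544) are on the minus strand.

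Zygotes from B6D2F1 (BDF1) mice aged 8 weeks, whose samples carry the strain label BDF2, had antisense oligonucleotide (ASO) injected into the male pronucleus at 20 µM. MERVL-KD embryos received a mixture of 3 ASOs against the endogenous retrovirus MERVL, and control embryos received a scrambled ASO. Each library held RNA of 30 embryos freed of the zona pellucida, and each condition had 2 biological replicates at the 2-cell (1.5 days post coitum), 4-cell and 8-cell stages, the last pair of stages both labelled 2.5 days. Every one of the 12 libraries came from embryos that had been injected with an oligonucleotide, so a response shared by both conditions, or one to injection alone, cannot be told apart from the resting state here. Embryos were picked by their cleavage stage under the microscope, and in such pools a change in the share of cells that use a gene and a change in RNA per cell cannot be told apart. The paper reports that development was delayed in MERVL-KD embryos, more of which than of control embryos were still at early cleavage stages. Pools matched by stage may thus differ between conditions in how fast their embryos had developed. The part of this selection in the 4-cell and 8-cell results, the differences between stages and the control course was not tested.

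RIG-I and MDA5 bind double-stranded RNA in the cytoplasm and signal through MAVS on mitochondria. LGP2 is a related helicase without the signalling domains and modulates both. The signal activates IRF3 and IRF7, which switch on type I interferon. Secreted interferon binds its receptor, and the signal leads a complex that contains IRF9 to the interferon-stimulated response element (ISRE) of target genes, among them Isg15, Irf7, the sensors themselves and PKR, a kinase that stops translation once bound to double-stranded RNA. Parp14, an ADP-ribosyltransferase, belongs to the same induced set. Preimplantation embryos are generally held to have a weak interferon response, while endogenous retroviruses are strongly transcribed in them.

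The injected oligonucleotides are shown because they are the foreign nucleic acid that the embryos of each condition received. Capitals mark CG dinucleotides, of which the scrambled control held 2 and the MERVL ASOs 0 or 1.
MERVL-ASO1: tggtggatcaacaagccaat
MERVL-ASO2: catttgtctgtttaccaCGa
MERVL-ASO3: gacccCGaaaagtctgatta
Scramble-ASO: agCGCGggtattgaaccagg
In the transcribed strand of the 10 genes (GRCm38) none of the 4 oligonucleotides had a site with up to 4 mismatches over its 20 bases, and none had a site with up to 2 mismatches within 100000 bases of any of the genes.

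The promoter of Isg15 is shown because it carries matches to the interferon-stimulated response element (ISRE). GAAA, any 2 bases and GAAA again were searched on both strands in the window from 250 bases before to 50 bases after each start site (RefSeq, GRCm38.p6), overlapping matches being counted separately, and 3.44% of 32851 such windows held a match. Capitals mark the 3 overlapping matches in the 120 bases before the Isg15 start (chr4:156200819-156200938, minus strand), which begin 78, 72 and 66 bases before it.
Isg15: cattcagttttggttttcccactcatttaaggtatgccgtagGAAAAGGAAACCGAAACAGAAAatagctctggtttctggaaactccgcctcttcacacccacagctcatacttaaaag
Ddx58, Ifih1 and Eif2ak2 held 1 match each, which began 3, 33 and 19 bases after the start. The windows of Mavs, Irf3, Irf7 and Irf9 held none of these letters. The motif TTCNNNGAA, known as the GAS element, was in 8.3% of windows and, of the 8 genes searched, in that of Eif2ak2 alone, at 1 position, which reads on both strands. Dhx58 and Parp14 were not searched.

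The knockdown itself was large at each stage. MERVL-int took 6.33% and 6.57% of the counts of the control 2-cell libraries and 0.157% and 0.143% in MERVL-KD, a fitted difference of 52.7-fold (edgeR, adjusted p = 1.28e-16), and it was 46.2-fold lower at the 4-cell stage and 42.1-fold lower at the 8-cell stage. The libraries held between 28167085 and 41482526 counts. No pair of replicate libraries was alike within counting error (chi-square over degrees of freedom, 14.7 to 25.8). Even counts made up 71.8% to 74.7% of genes with 1 to 50 counts, a pattern that arises when both mates of a pair are counted, and such counts overstate the independent fragments.

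In 2-cell embryos part of the system was higher in MERVL-KD than in control. Dhx58, Eif2ak2, Isg15, Irf7 and Irf9 rose between 2.23-fold and 8.02-fold, and none of the 9 tested fell (7.39% of all genes did). The sensor Ddx58 and the regulator Irf3 did not pass the test, nor did Mavs and Parp14, and Ifih1 was near 0 in control and was not tested. Thus 5 of 9 tested genes rose (adjusted p under 0.05), against 6.7% of all 20604 genes tested, and all 5 were at least 2-fold higher, against 4.37% of all genes. The genes were chosen with earlier results of these data known, so this excess is a description and no independent support. The median log2 fold change was 1.16 over the 9 genes and 0.01 over all genes. TMM scaling set that centre. With scaling by library size alone the median of all genes was 0.30, 86.3% of the genes that passed were higher where TMM gave 47.6%, and relative to that median the 5 genes were 1.15 to 2.99 higher on the log2 scale.

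**Figure D1:**
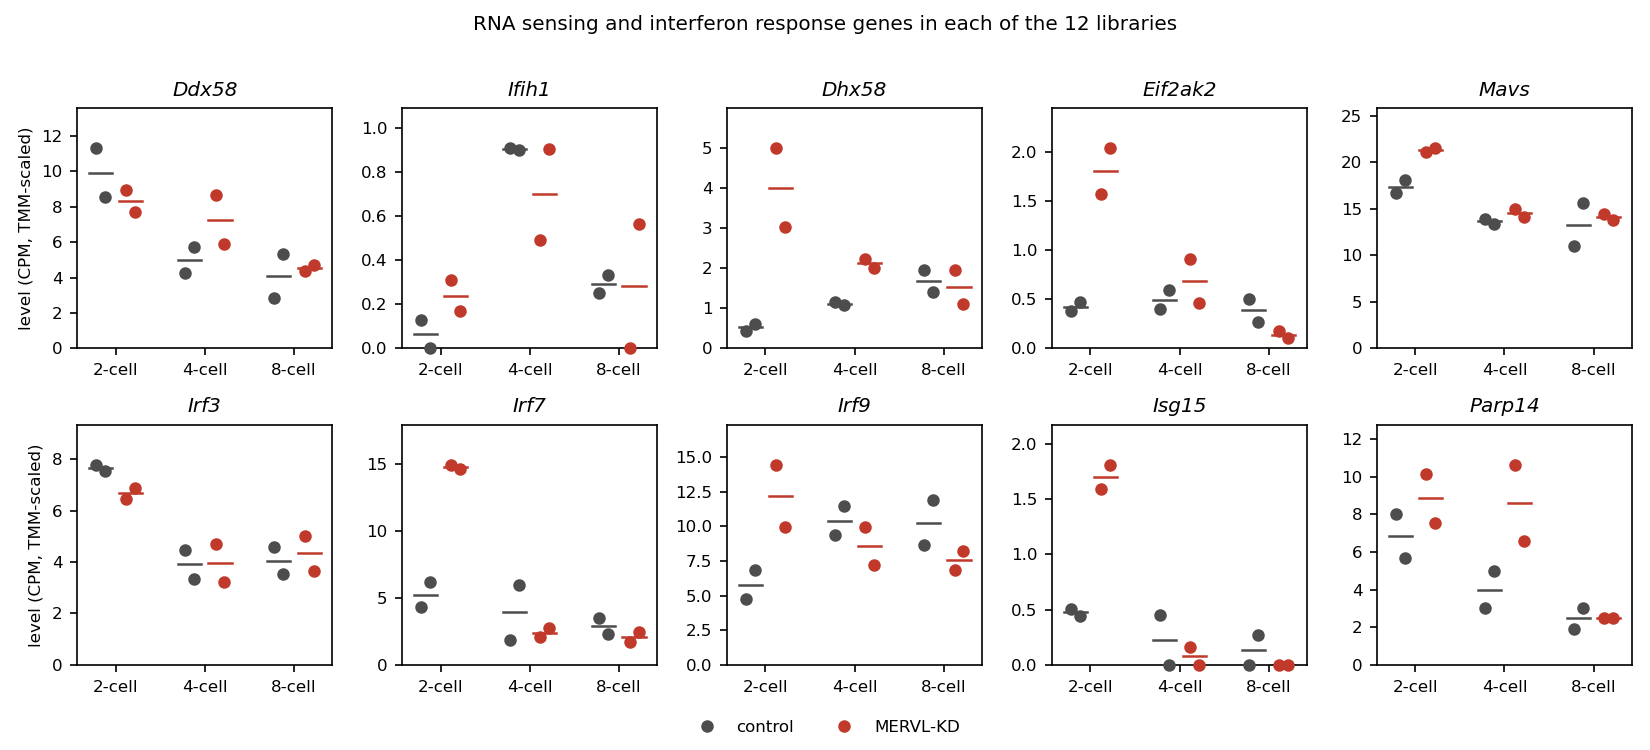
Level of each gene in CPM (read counts relative to library size, scaled by TMM) in the control (grey) and MERVL-KD (red) libraries at the 3 stages, 1 point per library, with a line at the mean of each pair; axes start at 0. The MERVL-KD points of Dhx58, Eif2ak2, Irf7, Irf9 and Isg15 stand above both control points at the 2-cell stage. Of these genes only Dhx58 keeps that order at the next stage, and none does at the last stage.

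Dhx58 had the highest fold of the 3 sensors tested at the 2-cell stage. It held 14 and 22 counts in control against 210 and 107 in MERVL-KD, or 0.446 and 0.605 CPM against 4.99 and 3.02 CPM. Both MERVL-KD libraries lay far above both control libraries, although they differed from each other. The log2 fold change was 3.00 ± 0.41 (SE, n = 2 per condition, edgeR quasi-likelihood test with Benjamini-Hochberg adjustment, adjusted p = 1.17e-04). Dhx58 passed in each of the 14 alternative fits, with log2 fold changes from 2.58 to 3.31. At the 4-cell stage it was 1.16 and 1.08 CPM in control and 2.22 and 2.01 CPM in MERVL-KD. The pairs did not overlap there either, but the difference of 0.92 ± 0.44 on the log2 scale did not pass (adjusted p = 0.219), its 95% interval running from -0.03 to 1.88. At the 8-cell stage the values were 1.96 and 1.41 CPM against 1.96 and 1.10 CPM, and the pairs overlapped. The knockdown difference of this helicase passed only at the 2-cell stage, where its control level was also lowest. The same control libraries set that level and enter the fold. The control rise to the 4-cell stage did not pass (1.08 ± 0.49, adjusted p = 0.0703).

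Eif2ak2, the kinase that halts translation, had few counts in every library. The 2-cell libraries held 12 and 17 counts in control and 66 and 72 in MERVL-KD, or 0.382 and 0.468 CPM against 1.57 and 2.03 CPM. The pairs were well separated, and the log2 fold change was 2.15 ± 0.48 (adjusted p = 0.0070). With all 12 libraries in one fit it was 2.07 (adjusted p = 0.0725). The 4-cell values of 0.397 and 0.590 CPM in control and 0.906 and 0.467 CPM in MERVL-KD overlapped, with a log2 fold change of 0.49 ± 0.72 that turned to -0.076 without the first MERVL-KD library. At the 8-cell stage, with 14 and 8 counts in control and 6 and 4 in MERVL-KD, it was not tested. Its rise at the 2-cell stage therefore rests on counts of 72 or fewer per library.

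Ddx58, which recognises RNA ends with a triphosphate, had the highest level per length of the 4 sensors in control 2-cell embryos. It was at 11.3 and 8.55 CPM there and 8.95 and 7.71 CPM in MERVL-KD. These pairs overlapped, and the log2 fold change was -0.17 with a 95% interval from -0.61 to 0.28. That interval does not reach a 2-fold change in either direction, and with scaling by library size alone the value was 0.12. At the 4-cell stage Ddx58 was 4.28 and 5.69 CPM in control and 8.64 and 5.90 CPM in MERVL-KD, without overlap and without passing the test (0.55 ± 0.29, adjusted p = 0.263). At the 8-cell stage 2.86 and 5.32 CPM in control enclosed the 4.35 and 4.69 CPM of MERVL-KD.

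Ifih1, which binds long double-stranded RNA, was scarcely detected at the 2-cell stage, with 4 and 0 counts in control and 13 and 6 in MERVL-KD, and no fold is given. At the 4-cell stage it held 32 and 26 counts in control and 18 and 31 in MERVL-KD. Its 8-cell counts were 7 and 10 in control, with 0 and 22 in MERVL-KD. The spread within pairs at this depth left the 4-cell difference (log2 -0.37, 95% interval -1.71 to 0.98) and the 8-cell difference (-0.04, interval -2.91 to 2.84) unresolved.

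Mavs, the adaptor on which both sensors converge, had the highest level per length of the 10 in each of the 6 groups. It stood at 16.7 and 18.1 CPM in control and 21.2 and 21.5 CPM in MERVL-KD at the 2-cell stage. The pairs did not overlap, and the log2 fold change of 0.38 ± 0.15 did not pass (adjusted p = 0.105, 95% interval 0.07 to 0.69). The later differences were 0.10 ± 0.18 and 0.10 ± 0.20, with levels from 13.4 to 15.0 CPM at the 4-cell stage and from 11 to 15.6 CPM at the 8-cell stage. At each stage the interval for Mavs excluded a 2-fold change.

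The 3 regulators split. Irf7, the factor that amplifies interferon production and is itself induced by interferon, was 4.30 and 6.16 CPM in control and 14.9 and 14.6 CPM in MERVL-KD at the 2-cell stage. The MERVL-KD pair was close together and above both controls, with a log2 fold change of 1.58 ± 0.21 (2.98-fold, adjusted p = 8.95e-05). It passed in each of the 14 alternative fits, from 1.34 to 1.87. In 4-cell embryos the control libraries differed widely, with 1.87 and 5.97 CPM, and enclosed the MERVL-KD values of 2.09 and 2.74 CPM. The 4-cell log2 fold change of -0.68 ± 0.48 (adjusted p = 0.433) was -1.30 (adjusted p = 0.0306) without the first control library and 0.36 without the second, so it depended on which control was kept. In 8-cell embryos 3.48 and 2.34 CPM in control and 1.73 and 2.49 CPM in MERVL-KD overlapped.

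Irf9, the DNA-binding part of the complex that reads the ISRE, was 4.78 and 6.82 CPM in control and 14.4 and 9.95 CPM in MERVL-KD at the 2-cell stage. The groups did not overlap, and the log2 fold change was 1.16 ± 0.23 (2.23-fold, adjusted p = 0.0036). It passed in each of the 14 alternative fits, from 0.85 to 1.45. Neither later difference passed. The 4-cell values were 9.36 and 11.5 CPM in control and 9.96 and 7.18 CPM in MERVL-KD (log2 -0.27 ± 0.24), and the 8-cell values were 8.66 and 11.9 CPM against 6.86 and 8.25 CPM (-0.43 ± 0.23, adjusted p = 0.332). The 4-cell pairs overlapped, and the 8-cell MERVL-KD pair lay below the control pair.

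Irf3, the constitutive factor that phosphorylation activates, was 7.77 and 7.54 CPM in control and 6.44 and 6.89 CPM in MERVL-KD at the 2-cell stage. The MERVL-KD pair lay below the control pair, and the log2 fold change of -0.12 ± 0.21 did not pass, its 95% interval from -0.56 to 0.33 staying inside 2-fold. With scaling by library size alone it was 0.17. The pairs overlapped at the 4-cell stage (4.48 and 3.33 CPM against 4.72 and 3.24 CPM) and at the 8-cell stage (4.57 and 3.55 CPM against 5.02 and 3.66 CPM).

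Of the induced genes, Isg15, the ubiquitin-like protein whose promoter is printed above, held 16 and 16 counts in 2-cell control against 67 and 64 in MERVL-KD. As levels these were 0.510 and 0.440 CPM against 1.59 and 1.81 CPM, with close pairs and a wide gap between them. The log2 fold change was 1.92 ± 0.48 (3.78-fold, adjusted p = 0.0136). The adjusted p was 0.0528 without the second control library and 0.458 with all 12 libraries in one fit, the log2 fold change being 1.79 and 1.83. At the later stages Isg15 was near 0, with 16 and 0 counts in 4-cell control, 6 and 0 in 4-cell MERVL-KD, 0 and 8 in 8-cell control and 0 in both 8-cell MERVL-KD libraries. It was not tested there, and a count of 0 allows up to 3 counts in a library.

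Parp14 was the only 1 of the 9 genes tested at the 4-cell stage to pass, against 4.92% of 19738 genes that rose, 5.84% that fell and 2.66% that rose at least 2-fold. It was 3.03 and 4.96 CPM in 4-cell control and 10.6 and 6.57 CPM in 4-cell MERVL-KD, without overlap. The log2 fold change was 1.12 ± 0.32 (2.17-fold, adjusted p = 0.0490). The call was lost without the first control library (0.80, adjusted p = 0.164), without the first MERVL-KD library (0.72, adjusted p = 0.266), with the replicate number as a block (1.11, adjusted p = 0.0886) and without robust estimation (1.12, adjusted p = 0.057). At the 2-cell stage the pairs overlapped, with 8.03 and 5.69 CPM in control and 10.2 and 7.52 CPM in MERVL-KD (0.45 ± 0.24, adjusted p = 0.238). In 8-cell embryos the control values of 1.92 and 3.05 CPM enclosed the 2.51 and 2.51 CPM of MERVL-KD. Beside the 4-cell rise, the summed level of 9 cumulus and granulosa cell markers was 1.19 and 0.937 CPM in control and 2.52 and 3.15 CPM in MERVL-KD, and that of 8 immune cell markers was 2.69 and 3.16 CPM against 3.59 and 5.05 CPM. Their part in the result was not tested.

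**Figure D2:**
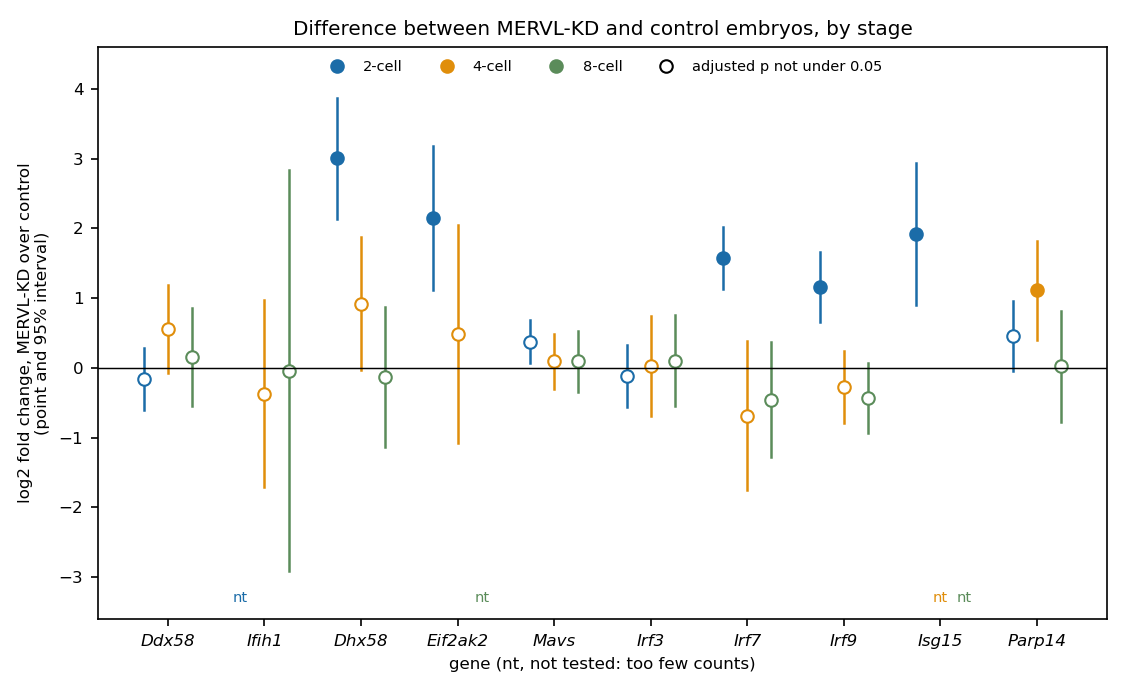
Log2 fold change of MERVL-KD over control for each gene at the 2-cell, 4-cell and 8-cell stages with its 95% interval from the edgeR fit; filled points passed at an adjusted p under 0.05 and nt marks genes not tested for too few counts. Filled points are at 1.16 to 3.00 for 5 genes at the 2-cell stage and at 1.12 for Parp14 at the 4-cell stage, and no 8-cell point is filled.

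In 8-cell embryos 0 of 8 tested genes passed in edgeR, 0 had an unadjusted p under 0.05 (the smallest was 0.0820, of Irf9) and 0 passed in DESeq2, while 1.5% of 18414 genes rose and 3.56% fell. Both MERVL-KD libraries stood above both controls for 7 of the 10 genes at the 2-cell stage, 6 of them among the 9 tested. Among all genes tested this held for 23.8% at that stage. It held for 4 genes at the 4-cell stage (28% of all genes), Ddx58, Dhx58, Mavs and Parp14, and for 0 at the 8-cell stage (23.6%). Both MERVL-KD libraries stood below both controls for 1 gene at the 2-cell stage, Irf3 (33.7% of all genes), for 0 at the 4-cell stage (26.4%) and for 2 at the 8-cell stage, Irf9 and Eif2ak2 (25.9%).

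The knockdown differences at the 4-cell and 2-cell stages were compared in one fit of the 12 libraries. For Irf7 the 4-cell minus the 2-cell difference was -2.18 ± 0.57 on the log2 scale (adjusted p = 0.0368), and for Irf9 it was -1.35 ± 0.37 (adjusted p = 0.0428). These 2 of 10 genes passed, against 4.16% of 24040 genes in either direction. Dhx58 did not pass at -2.0 ± 0.66 (adjusted p = 0.0965), although it did with scaling by library size alone (-2.31, adjusted p = 0.0400) and where each library had to hold 10 counts of a gene (-2.09, adjusted p = 0.0380). Eif2ak2 at -1.59 ± 0.98 (adjusted p = 0.441) and Isg15 at -3.28 ± 1.88 (adjusted p = 0.406) did not pass. The result for Irf7 was lost without any 1 of 6 libraries, its value being -1.12 (adjusted p = 0.296) without the second control 4-cell library and between -2.48 and -1.93 without the first control, second control, first MERVL-KD or second MERVL-KD 2-cell library or the first MERVL-KD 4-cell library. The result for Irf9 was lost without the first control 2-cell library (-1.10), the first MERVL-KD 2-cell library (-1.06), the second control 4-cell library (-1.19) or the second MERVL-KD 4-cell library (-1.25), and without robust estimation (adjusted p = 0.0512). For Parp14, the gene that passed at the 4-cell stage, the difference from the 2-cell effect was 0.74 ± 0.45 (adjusted p = 0.438), so its effect was not shown to differ between these stages. Between the 4-cell and the 8-cell stage 0 of 10 genes differed (0.624% of all genes did), with 1 at an unadjusted p under 0.05, Parp14 at -1.10 ± 0.48 (adjusted p = 0.359), and 0 in DESeq2.

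In control embryos the genes followed separate courses, measured on the same control libraries that enter the knockdown comparisons. From the 2-cell to the 4-cell stage 5 of 10 changed, against 55.1% of all 24040 genes, so the count is near the background. Ddx58 fell by 0.99 ± 0.30 on the log2 scale (adjusted p = 0.0075), Irf3 fell by 0.97 ± 0.29 (adjusted p = 0.0082) and Parp14 fell by 0.78 ± 0.33 (adjusted p = 0.0487). Irf9 rose by 0.84 ± 0.27 (adjusted p = 0.0106) and Ifih1 by 3.81 ± 1.34 (adjusted p = 0.0201), the latter from a pair of libraries with 4 and 0 counts. The fitted value of Ifih1 was 7.97 without the first of that pair, which leaves a library at 0, so it is no bound on the fold. Without the first control 2-cell library only 2 of the 5 still passed, with Ddx58 at -0.80, Irf9 at 0.59 and Parp14 at -0.54. Other single libraries also ended a call: the second control 2-cell library for Ifih1 (2.80), the first control 4-cell library for Ddx58 (-0.80) and Parp14 (-0.47), and the second control 4-cell library for Irf3 (-0.78) and Irf9 (0.67). Parp14 also lost its call in 5 other alternative fits. From the 4-cell to the 8-cell stage 0 of 10 genes changed in edgeR or DESeq2, 0 with an unadjusted p under 0.05 (smallest 0.0612), against 5.87% of all genes.

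Between genes, levels were compared as CPM per kilobase of exon. In control 2-cell embryos Mavs was highest at 5.20 ± 0.30 (SD, n = 2), followed by Irf3 at 2.22 ± 0.05. Ddx58 (1.41 ± 0.27), Irf7 (1.39 ± 0.35) and Irf9 (1.08 ± 0.27) came next, and each overlapped its neighbour in this order. Parp14 (0.737 ± 0.177) and Isg15 (0.675 ± 0.070) overlapped, and Dhx58 (0.161 ± 0.034), Eif2ak2 (0.0831 ± 0.0118) and Ifih1 (0.0078 ± 0.0110) formed the low end without overlap. The 3 least abundant genes were thus all sensors.

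In MERVL-KD 2-cell embryos Mavs (6.38 ± 0.07) was still first on this scale, Irf7 was second at 3.91 ± 0.06, and Isg15 (2.42 ± 0.22), Irf9 (2.26 ± 0.59) and Irf3 (1.94 ± 0.09) followed, neighbours overlapping. Dhx58 (1.22 ± 0.42) there overlapped Ddx58 (1.18 ± 0.12). The libraries of Dhx58 and Ddx58 thus overlapped per length, where in control Ddx58 had been the higher of the pair in both libraries.

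**Figure D3:**
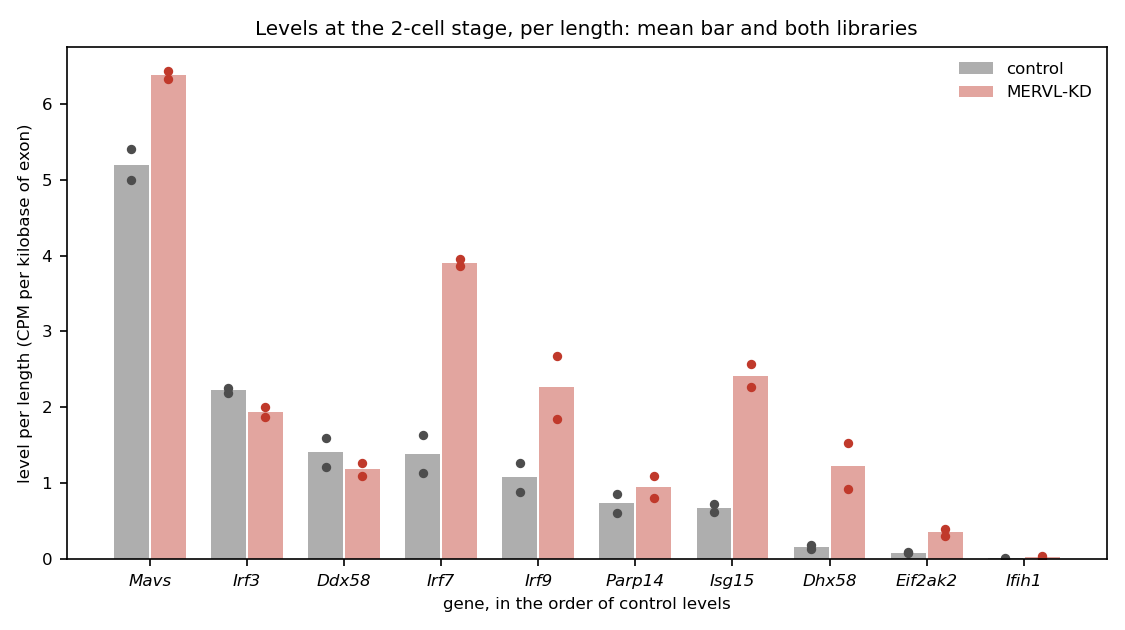
Level per length (CPM per kilobase of exon, linear axis from 0) of each gene in control (grey) and MERVL-KD (red) 2-cell embryos, bars being means and points the 2 libraries. Mavs is highest in both conditions, Irf7 moves from 1.39 to 3.91 and Isg15 from 0.675 to 2.42.

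Of the interferons that act upstream of the factors, Ifnb1 had 0 counts in each of the 12 libraries, which allows up to 3 counts in a library, and the genes of the Ifna family held 8 counts or fewer in any library. Ifng fell from 57 and 96 counts in control to 18 and 3 in MERVL-KD at the 2-cell stage (log2 -2.98, adjusted p = 0.0033). The value was -4.59 without the first MERVL-KD library and -2.30 without the second, and with all 12 libraries in one fit the adjusted p was 0.0908. Of the 16 interferon and receptor genes 7 were tested at the 2-cell stage, 1 rose and 1 fell. For this and each list below, the shares of all tested genes that rose and fell were 6.7% and 7.39% at the 2-cell stage. They were 4.92% and 5.84% at the 4-cell stage and 1.5% and 3.56% at the 8-cell stage. The receptor chain Ifnar1 rose from 19.5 and 21.0 CPM to 26.4 and 28.6 CPM (log2 0.52, adjusted p = 0.0184), a call lost in the fit of 12 libraries (adjusted p = 0.184) and without the first control (0.47) or the second MERVL-KD library (0.46). In 4-cell embryos 1 of 7 rose, the receptor Ifngr1 (0.70, adjusted p = 0.0261), with the call lost in the fit of 12 libraries or without the first control or first MERVL-KD library (values with a library left out, 0.59 to 0.80). In 8-cell embryos 0 of 6 passed in edgeR, 0 of them with an unadjusted p under 0.05.

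Of the other nucleic acid sensors 14 of 17 were tested at the 2-cell stage and 1 rose, Sting1, the adaptor of cytosolic DNA sensing. It was 0.382 and 0.495 CPM in control and 3.11 and 1.67 CPM in MERVL-KD (log2 2.52, adjusted p = 0.0020), and 0.340 and 0.521 CPM against 6.04 and 6.95 CPM at the 4-cell stage (3.92, or 15.2-fold, adjusted p = 8.18e-05). In 8-cell embryos all 4 libraries were between 0.173 and 0.335 CPM. Sting1 was the only one of 13 tested at the 4-cell stage to pass, and 0 of 8 passed at the 8-cell stage in edgeR (1 with an unadjusted p under 0.05).

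Among the 25 genes of sensor signalling, all tested, 3 rose (6.7% of all genes did) and 0 fell (7.39%) at the 2-cell stage. Trim25, the ubiquitin ligase that activates RIG-I, rose from 30.8 and 32.1 CPM to 66.9 and 63.7 CPM (log2 1.14, adjusted p = 4.55e-06). Tbkbp1, a binding partner of the kinase TBK1, rose from 0.828 and 0.715 CPM to 4.65 and 4.89 CPM (2.71, adjusted p = 5.08e-05). Nlrx1, a mitochondrial protein that dampens MAVS signalling, rose by 1.54 (adjusted p = 3.32e-04), a call lost in the fit of 12 libraries. The list median was 0.30. In 4-cell embryos 0 of 24 passed in edgeR (5 with an unadjusted p under 0.05). In 8-cell embryos Trim25 fell by 0.83 and the adaptor Traf3 rose by 0.81 among 23 tested, the latter call being lost without the first control library (values from 0.66 to 0.98 with a library left out).

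Of the 18 genes of the JAK-STAT pathway and IRF family 17 were tested at the 2-cell stage. Irf1 rose by 0.67 (adjusted p = 0.0160) and the phosphatase Ptpn2 fell by 0.36 (adjusted p = 0.0143). The call of Irf1 was lost without the first control library (0.55, adjusted p = 0.129) and with 12 libraries in one fit (0.59, adjusted p = 0.199), and that of Ptpn2 without the second control library (-0.29) and with scaling by library size alone (-0.069). In 4-cell embryos Irf1 rose (1.61, adjusted p = 0.0271) and the phosphatase Ptpn11 fell (-0.71) among 16 tested. That call of Irf1 was lost without the second control or either MERVL-KD library (1.47 to 1.77 with a library left out). In 8-cell embryos Ptpn11 fell (-0.55) among 16.

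Interferon-stimulated genes outside the 10 moved unevenly. Of 42 listed, 26 were tested at the 2-cell stage. Of these 5 rose (6.7% of all genes did), 4 of them at least 2-fold (4.37% of all genes), and 1 fell (7.39% of all genes). The median of the 26 was 0.03, close to that of all genes (0.01). Isg20, an exonuclease acting on RNA, rose from 3.66 and 3.00 CPM to 10.6 and 9.32 CPM (log2 1.67, adjusted p = 1.40e-04), and Irgm1, a GTPase of the interferon response, rose from 0.191 and 0.275 CPM to 1.71 and 1.53 CPM (2.85, adjusted p = 0.0024). The other risers, named after their values were seen, were Herc6, the ligase that attaches ISG15 to proteins (2.27, adjusted p = 0.0257), Uba7, the enzyme that activates ISG15 (5 and 0 counts in control, 32 and 29 in MERVL-KD, adjusted p = 0.0354) and B2m of the MHC class I complex (0.61, adjusted p = 0.0384).

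The gene that fell, Sp110, was at 1055 and 1176 CPM in control and 623 and 689 CPM in MERVL-KD (log2 -0.68, adjusted p = 2.85e-05). It also fell by 1.00 at the 4-cell stage and by 0.69 at the 8-cell stage. Sp110 belongs to a family of near-identical copies, and only unique alignments were kept. Reads that match several copies may thus be missing, and its value is uncertain. Classical targets were almost absent, with 15 counts or fewer of Ifit1, Ifit3, Rsad2 and Mx1 in any of the 12 libraries. In 4-cell embryos Tap1, the peptide transporter of antigen presentation, rose (1.96, adjusted p = 0.0232) and Sp110 fell among 23 tested. The call of Tap1 was lost without the first control or the second MERVL-KD library (1.64 to 2.34 with a library left out). In 8-cell embryos 1 of 23 passed, Sp110.

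**Figure D4:**
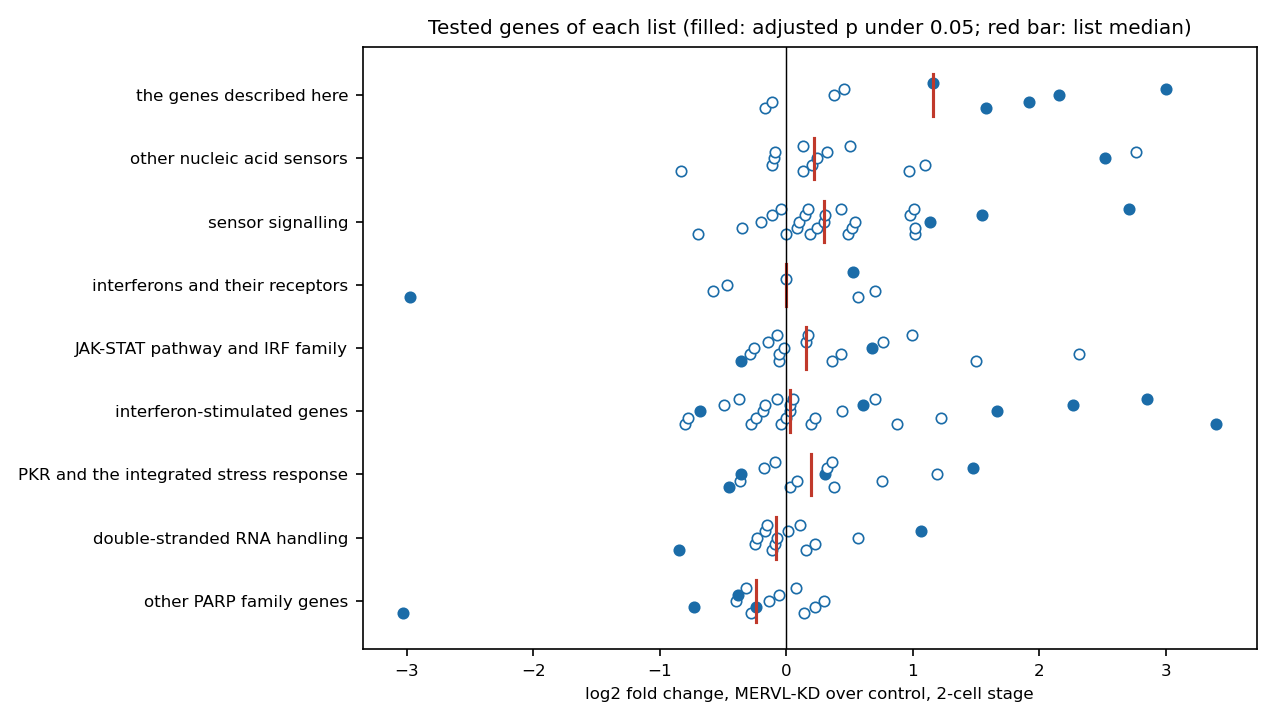
Log2 fold change of MERVL-KD over control at the 2-cell stage for each tested gene of the 10 genes and of the 8 related lists, filled where the adjusted p was under 0.05, with a red bar at the list median. The median is 1.16 for the genes described here and lies between -0.24 and 0.30 for the other lists drawn. The lists of cell type markers are not drawn. Their medians were 2.14 for immune cells (4 tested), 0.08 for cumulus and granulosa cells (4 tested) and -0.20 for oocyte and embryo (6 tested). A gene with enough counts in either condition was tested, so medians over few genes of low level can lean away from 0.

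Genes of the integrated stress response, which PKR can start, did not move one way. The 15 listed include, beside its targets, Eif2s1 and the related kinases Eif2ak1, Eif2ak3 and Eif2ak4, which are not downstream of PKR. Of these 15 genes 14 were tested at the 2-cell stage, 2 rose and 2 fell. Asns, a target of the factor ATF4, rose by 1.48 (adjusted p = 0.0140), a call lost without the second control library (1.43, adjusted p = 0.0527). Sesn2, a stress-induced regulator of growth signalling, rose by 0.31 (adjusted p = 0.0218), a call lost without the first control library (0.22) and in the fit of 12 libraries (0.23). Ppp1r15a, which reverses the effect of PKR, fell by 0.46 (adjusted p = 9.13e-04), but not with scaling by library size alone (-0.17). The other gene that fell was the kinase Eif2ak4 (-0.36, adjusted p = 0.0494). It was named after its value was seen and was not read in the alternative fits. Sesn2 rose in 4-cell (0.80) and 8-cell embryos (0.51). Of the list, 2 of 14 rose and 0 fell at the 4-cell stage, and 2 rose and 1 fell of 13 at the 8-cell stage.

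Among 14 genes that handle double-stranded RNA, Dicer1, the ribonuclease of small RNA pathways, fell from 308.8 and 328.2 CPM to 156.3 and 177.9 CPM at the 2-cell stage (log2 -0.85, adjusted p = 9.61e-06), and Adarb1, an RNA editing enzyme, rose by 1.06 (adjusted p = 9.64e-04). In 4-cell embryos 1 rose and 3 fell, among them Adar, the interferon-inducible editing enzyme (-0.62, adjusted p = 0.0232). The call of Adar was lost with scaling by library size alone and without the first control, the second control or the second MERVL-KD library (-0.70 to -0.55 with a library left out). In 8-cell embryos 0 of 14 passed in edgeR (5 with an unadjusted p under 0.05).

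Among the relatives of Parp14 more genes fell than rose. Of 13 other PARP family genes 0 rose (6.7% of all genes did) and 4 fell (7.39%) at the 2-cell stage. The fall was 3.03 on the log2 scale for Parp8, 0.73 for Tnks, 0.38 for Parp12 and 0.24 for Tiparp, named after its value was seen. The call of Parp12 was lost with scaling by library size alone (-0.099) and in the fit of 12 libraries. Tiparp was not read in the alternative fits at this stage. Its fall was smaller than the median of all genes with library size alone (0.30), so it may depend on the scaling. In 4-cell embryos 4 of 12 fell, with Parp8 at -2.90, Tiparp at -0.73 and Parp1 at -0.44, and in 8-cell embryos 3 of 11 fell (Tiparp -1.12, Parp12 -1.17, Parp8 -1.41) and 1 rose.

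Markers of other cell types were read beside these results. Of 8 immune cell markers 4 were tested at the 2-cell stage, all 4 had an unadjusted p under 0.05 and 2 rose. The median log2 fold change of these 4 was 2.14. Enough counts in either condition sufficed for a test, so a marker high in MERVL-KD alone could enter. The median and the count of 4 can therefore lean upward. Cd68, a lysosomal protein of macrophages that other cells also make, went from 20 and 24 counts to 274 and 145 (log2 3.11, adjusted p = 2.86e-05), and Itgam from 6 and 10 to 58 and 21 (2.15, adjusted p = 0.0498), a call lost in 8 of 13 alternative fits, among them those without the first control, the second control or the first MERVL-KD library (1.40 to 2.62 with a library left out). The summed level of the 8 markers was 1.98 and 1.62 CPM in control and 10.3 and 6.27 CPM in MERVL-KD. Cd68 alone made up 0.637 and 0.660 CPM of it in control and 6.51 and 4.10 CPM in MERVL-KD. The defining markers Ptprc and Adgre1 held 2 counts or fewer in each of the 4 libraries, both MERVL-KD libraries having 0 for Ptprc, and Csf1r held 9 counts or fewer. The part of such cells in the rise of Dhx58 and the other 4 genes was not tested.

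In 4-cell embryos both MERVL-KD libraries also lay above control in the immune sum, as given beside Parp14, and its part in the 4-cell rises of Sting1, Irf1 and Tap1 was not tested. In 8-cell embryos it was 3.77 and 2.21 CPM against 3.89 and 3.28 CPM, with 0 of 3 markers passing at either of these stages in edgeR (0 with an unadjusted p under 0.05). For cumulus and granulosa cells 0 of 4, 0 of 2 and 0 of 1 tested markers of 9 passed in edgeR at the successive stages (1, 1 and 0 with an unadjusted p under 0.05). Their sum at the 2-cell stage was 4.49 and 3.96 CPM in control and 4.61 and 4.66 CPM in MERVL-KD. Oocyte and embryo markers were abundant, summing to 1417 and 1484 CPM against 1048 and 1092 CPM, with 1 of 6 higher and 3 lower, among them Dppa3 (-0.54). With scaling by library size alone the calls of the other two, Oosp1 (-0.032) and Nlrp5 (-0.063), were lost. In 4-cell embryos 1 of these 6 fell and in 8-cell embryos 2 fell, among them Pou5f1 (-0.68).

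Repeat classes other than MERVL-int differed in both directions beside the 2-cell result. All repeats took 23.6% and 25.2% of the counts in control and 16.5% and 15.8% in MERVL-KD. Among the lower classes, ERVL-MaLR families went from 5.27% and 5.09% to 3.89% and 3.79%, and ERVL families without MERVL-int from 0.859% and 0.873% to 0.315% and 0.337%. As shares of all counts, LINE L1 families took 1.14% and 1.02% in control, where MERVL-KD had 1.62% and 1.43%, ERVK families 0.699% and 0.621% against 0.930% and 0.820%, and SINE B2 families 1.67% and 1.66% against 2.30% and 2.63%. The latter 3 shares, which share a total with MERVL, were higher in both MERVL-KD libraries. Unlike the gene levels, these shares were not scaled by TMM. With library size alone the median log2 fold change of all genes was itself 0.30 in 2-cell and 0.13 in 8-cell embryos. Whether the repeat classes rose beyond that shift was not tested. In 8-cell embryos ERVK families were at 1.68% and 1.74% in MERVL-KD against 1.38% and 1.24% in control. There L1 families were at 1.14% and 1.11% against 1.10% and 0.947%, and B2 families at 4.48% and 3.81% against 2.82% and 3.20%. In 4-cell embryos ERVK families were at 1.59% and 1.70% in MERVL-KD against 1.26% and 1.23% in control. B2 families were there at 4.93% and 6.11% against 4.91% and 4.62%. The 4-cell L1 shares of 1.36% and 1.42% against 1.52% and 1.38% overlapped. The part of repeat RNA, which was not measured by strand here, in the levels of the 10 genes was not tested.

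For each gene with enough counts the 3 genes of most similar level over the 12 libraries were found by Pearson's r of log2 CPM, as a description over libraries that share stage and condition. Dhx58 was most like Dvl2 (r = 0.966), Cd68 (0.944) and Gm30124 (0.917). The marker that rose beside the sensor is thus also among its nearest genes. Irf7 was most like 5330431K02Rik (0.959), Rabl6 (0.956) and Gm45500 (0.949), and Irf9 was most like Glyctk (0.926), Alkbh7 (0.889) and Arl10 (0.874). The nearest genes of Parp14 were Micall1 (0.947), Clu (0.930) and Adipor2 (0.929). Ddx58 was nearest to Gm40617 (0.946), Gm45597 (0.943) and Bend6 (0.942), Mavs to Olfr329 (0.971), Lrrc8a (0.952) and Muc2 (0.952), and Irf3 to Dmrt3 (0.978), Gm28802 (0.975) and Ptprs (0.972). Among these 7 genes none had another of the 10 among its nearest 3, and Eif2ak2, Ifih1 and Isg15 had too few counts to be compared in this way.

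Exons of 6 genes shared bases with another gene, from 0.919% of the exon bases of Eif2ak2 to 4.31% of those of Dhx58, whose partner is the antisense gene Dhx58os. The partners of Irf3, Irf7 and Irf9, which were tested, did not pass at the 2-cell stage. Whether counting used strand is not given in the sources used here, so reads of the shared bases cannot be assigned to one gene of a pair.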

How the data were processed

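Total RNA of 12 pools of embryos was sequenced with a stranded kit. The authors aligned reads with STAR 2.5.3a to GRCm38, kept unique alignments, counted them with featureCounts per GENCODE gene and RepeatMasker family, and deposited raw counts without normalization. The 12 ATAC samples were not analysed here. From the counts, edgeR 4.0.16 (R 4.3.3, filterByExpr, TMM, robust quasi-likelihood test) was fitted to the 4 libraries of each stage, and to all 12 for control courses and differences between stages, over all 55291 genes and 1035 repeat families. P-values were adjusted over everything tested and read at 0.05, with 2-fold as the second threshold. Background shares are over genes. Levels are CPM with TMM factors, and log2 CPM used a prior count of 2. The alternatives were DESeq2 1.42.0, its size factors, library size alone, 2 count filters, no robust estimation, halved counts (for pairs counted by both mates), genes only, the replicate block, other sets of libraries and each library left out. The scripts were tested on simulated data. The members, the 11 other lists and the rule for naming (the 10 genes, up to 3 genes with the smallest adjusted p per list and stage, and the nearest 3) were chosen with earlier results of these data known. P-values set a difference between groups against the spread between 2 biological replicates per group, which the fit moderates over the genes and repeat families tested.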

Additional observations from a re-analysis of the deposited data

Results flagged for a closer look

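The knockdown difference differed between stages for 2 of the 10 genes, by the interaction contrast of the 12-library fit. Irf7 changed by -2.18 and Irf9 by -1.35 on the log2 scale from the 2-cell to the 4-cell stage. The same test passed for genes of the related lists. Between the 2-cell and the 4-cell stage the effect became lower for Cd68 (-2.28), Irgm1 (-2.59), Trim25 (-1.44), Tbkbp1 (-2.56) and Ptpn11 (-0.80) and higher for Dicer1 (0.60), Tnks (1.08), Sesn2 (0.57) and Zfr (0.58). Between the 4-cell and the 8-cell stage it became lower for Sting1 (-4.27) and higher for Parp8 (1.48).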

How the results depend on the processing

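Groups of 2 libraries, few counts of Isg15, Eif2ak2 and Ifih1, and counting of both mates limit what these data resolve, and a library left out leaves an arm with 1 library that is assumed to vary like the others. At the 2-cell stage 5 genes passed in 11 of 14 alternative fits. With all 12 libraries in one fit 3 passed (Dhx58, Irf7, Irf9), with scaling by library size alone 7 passed, and with single libraries left out from 4 to 5 passed; the cause was not tested. The count at the 4-cell stage (1) was 0 with the replicate block and 0 without robust estimation, and from 0 to 1 with a library left out, where without the first control library Irf7 passed (-1.30) and Parp14 did not (0.80). For the control course from 2-cell to 4-cell it was 5 and from 2 to 4 with a library left out, and for the stage difference from 2-cell to 4-cell it was 2, then 3 with scaling by library size alone and 3 where each library had to hold 10 counts of a gene (Dhx58 added), 1 without robust estimation and from 0 to 2 with a library left out. The counts of 0 at the 8-cell stage, in the later control course and in the later stage difference stayed 0 in every alternative fit.

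With library size alone the median log2 fold change of all genes was 0.30 in 2-cell (0.01 with TMM), 0.089 in 4-cell (0.03) and 0.13 in 8-cell embryos (0.0057), and the share of passing genes that were higher went from 47.6% to 86.3%, from 45.7% to 57.2% and from 29.6% to 60.9%. Under that scaling Mavs (0.67, 0.37 above the median of all genes) and Parp14 (0.74, 0.44 above it) passed at the 2-cell stage, and the sign turned for Ddx58 (0.12) and Irf3 (0.17) in 2-cell and for Ifih1 (0.052) and Dhx58 (0.012) in 8-cell embryos. None of these 4 differences passed in any fit.

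With a library left out, values ran from -0.38 to 0.045 for Ddx58 in 2-cell embryos, from -0.076 to 0.88 for Eif2ak2, from -0.27 to 0.28 for Irf3 and from -1.30 to 0.36 for Irf7 in 4-cell embryos. In 8-cell embryos they ran from -0.22 to 0.67 for Ddx58, from -0.22 to 0.93 for Ifih1, from -0.60 to 0.23 for Dhx58, from -0.13 to 0.37 for Mavs, from -0.14 to 0.31 for Irf3 and from -0.26 to 0.40 for Parp14. The stage difference of Isg15 ran from -7.84 to 2.75. For Ifih1 in 8-cell embryos 4 of the 14 alternatives gave no value.

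Same-numbered libraries of the 2 conditions did not deviate together (r = -0.016, -2.5e-04 and 0.013 at the 3 stages), so they share only a number. With the replicate block 5 genes passed in 2-cell, 0 in 4-cell and 0 in 8-cell embryos, 4 in the earlier control course and 2 in the earlier stage difference. Of 51 differences of related genes, 27 kept their side of the threshold in every fit and 0 turned sign.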
